A study of Mus musculus with 4 samples.

Results

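Cytochrome P450 enzymes are heme proteins that insert oxygen into steroids, fatty acids, vitamins and foreign compounds. Members of families 1 to 3 act mostly on foreign compounds, fatty acids and steroids, those of family 4 hydroxylate fatty acids, and others make steroid hormones, turn over sterols and bile acids, or activate and inactivate vitamins A and D. Most need an electron donor, either cytochrome P450 reductase in the endoplasmic reticulum or ferredoxin in mitochondria, and many are controlled by ligand-activated receptors such as the aryl hydrocarbon receptor (AHR), the retinoic acid receptors and the glucocorticoid receptor (GR). In the breast they are known chiefly for the oxidation of estrogens and retinoids.

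The members described here were all non-control probes whose gene name on the array began with Cyp followed by a digit, except the 3 probes for Cyp51, an enzyme of cholesterol synthesis, which were left out. They comprised 114 probes for 81 genes, out of 41174 non-control probes. The rule used names only and no measured value. RNA came from EPH-4 mouse mammary epithelial cells, in which EV-50 is a stable line carrying the empty shRNA vector and shGR-19 a stable line carrying the vector with an shRNA against GR, which its label gives as depleted of the receptor. Both lines grew without serum in DMEM/F-12 with 2 µg/ml puromycin, and the paper states that they were kept without glucocorticoids. Each was grown from 1 clone, which means that the shRNA and other differences between the clones cannot be told apart. There were 2 arrays per line, each hybridized with 1 Cy3-labelled sample made from 300 ng RNA. The labels give the arrays as duplicates without saying whether they were separate cultures, so that p-values measure only the spread between these arrays.

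Both the scanner output of each array and a table of log2 values made from the arrays in GeneSpring were deposited. Scanner values are given here on the log2 scale after subtracting each array's 75th percentile, and table values on the log2 scale around each probe's own median over the 4 columns. A probe was kept when it was well above background, by the scanner software's own test, on both arrays of at least 1 line. A probe was called higher or lower when the lines were over 2-fold apart and limma's adjusted p (Benjamini-Hochberg, over all 24436 kept probes) was below 0.01.

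The deposited sources did not give the same picture of the samples. Over 10590 brighter probes, the scanner arrays labelled replicate 1 of EV-50 and of shGR-19 were nearly alike (SD of the log2 differences 0.0806), while the arrays of a line were further apart, with SDs of 0.518 in EV-50 and 0.624 in shGR-19. The columns of the table showed the reverse: SDs were 0.0965 within EV-50, 0.0859 within shGR-19 and 0.444 to 0.453 across lines. Whether the scanner files labelled replicate 1 hold the arrays that their labels name could not be settled from the data, and scanner differences between the lines, and the filter on probes above background, share that limit. Called genes are therefore given from both sources, with the scanner difference within each replicate number beside the table value. The targeted gene, Nr3c1, had scanner values of 1.81 and 1.92 in EV-50 and 1.46 and -0.03 in shGR-19, for replicates 1 and 2 in that order. The shGR-19 array labelled replicate 2 was low and that labelled replicate 1 was 0.35 below its EV-50 counterpart. In the table Nr3c1 fell by 1.94 ± 0.05 (SE, n = 2 arrays per line; limma adjusted p = 0.0022). Mammary epithelial markers were measured well above background on all 4 arrays for 6 of the 7 listed genes, and none of the 4 hepatocyte markers on the array was kept. Of these 6 epithelial genes 1 was called lower in the table, against 2.39% of all kept probes. It was Krt14, with a difference of -1.13 ± 0.05 (limma adjusted p = 0.0033). Of 6 fibroblast markers 2 were kept and both were called higher in the table, against 1.87% of all kept probes. The summed linear level of these 2, relative to the 75th percentile, was 1.62 and 3.004 on the EV-50 arrays and 1.59 and 30.5 on the shGR-19 arrays. The part of these markers in the results below was not tested.

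In the table the members called different between the lines were Cyp1b1, Cyp2c55, Cyp2f2 and Cyp26b1. Each was read by a probe of 60 bases that lay in 1 unbroken stretch of mm9, the build of the probe annotation. The Cyp1b1 probe lay at chr17:80106547-80106606 on the minus strand, that of Cyp2c55 at chr19:39116674-39116733 on the plus strand, that of Cyp2f2 at chr7:27918570-27918629 on the plus strand and that of Cyp26b1 at chr6:84521952-84522011 on the minus strand. The annotation does not give whether these bases are coding. Because P450 genes arose by duplication, a stretch of 30 bases of each probe is shown, with capitals for the longest run of bases that it shares with a probe of any other Cyp gene.
Cyp1b1: actacATTAAGCAGAtagatcaccatgtat
Cyp2c55: TTCATTCCTcgttaaagcagaacacactgg
Cyp2f2: tgaaatacccgTCTTATACgcacagaacct
Cyp26b1: gggtgatgtagtctCACATTCCtaactatt
These runs were 10, 9, 8 and 8 bases long, respectively, so the 4 probes shared little sequence with the other Cyp probes on the array. Only probes were compared with probes, and probes of related genes can lie at different places in them. The runs therefore do not show whether a probe also matches the transcript of another Cyp gene. Between kept probes of different Cyp genes the longest shared run was 14 bases, for Cyp2j13 and Cyp2a4. Among all members it was 28 bases, for Cyp2a4 and Cyp2a5, and a signal on those probes cannot be ascribed to one of these paralogs from the array alone.

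To show what lies upstream of the called genes, the 250 bases before the annotated start were taken from RefSeq (GRCm38.p6), which gave a window for 58 of the 81 member genes and for all 4 called genes. On both strands, 3 motifs were searched: AGAACA, the GR half-site; GCGTG, the core to which AHR and its partner ARNT bind; and AGGTCA, the half-site of many nuclear receptors. The motifs do not overlap one another in the windows shown. Of 32851 windows in the whole table, 16.1% held the GR half-site, 28.2% the AHR core and 14% the nuclear receptor half-site, and of 67 windows of member genes 16.4%, 20.9% and 23.9% did. The windows of Cyp2c55 and Cyp26b1 held none of the 3 motifs, those of Cyp1b1 and Cyp2f2 held 1 each, in capitals below, and no window of the 4 held the GR half-site.
Cyp1b1, chr17:79715062-79715311, minus strand, AHR core: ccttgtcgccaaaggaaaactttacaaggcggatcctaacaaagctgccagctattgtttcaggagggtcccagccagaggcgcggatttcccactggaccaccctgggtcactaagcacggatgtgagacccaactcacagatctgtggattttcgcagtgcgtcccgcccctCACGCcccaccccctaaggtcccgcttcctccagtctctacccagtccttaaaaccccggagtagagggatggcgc
Cyp2f2, chr7:27119705-27119954, plus strand, nuclear receptor half-site: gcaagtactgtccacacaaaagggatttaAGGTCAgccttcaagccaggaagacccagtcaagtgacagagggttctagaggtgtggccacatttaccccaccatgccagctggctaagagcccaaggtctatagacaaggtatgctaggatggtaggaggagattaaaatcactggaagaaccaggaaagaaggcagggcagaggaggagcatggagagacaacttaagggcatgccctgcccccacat
A match is only a run of letters, and a window without a match says nothing about binding elsewhere.

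Most P450 probes were dim in these cells, although 45 of 81 genes had a kept probe. Of the 114 probes 52 were kept, which is 45.61% against 59.3% of all non-control probes. On all 4 arrays 37 probes for 30 genes were well above background, 49 probes were so on no array, and 13 were so on some arrays without being kept. The scanner arrays of EV-50 had 43 and 53 member probes well above background, and those of shGR-19 had 52 and 58. Fewer cells with a transcript and less transcript per cell cannot be told apart in this bulk RNA. A total of 26 genes had no probe above background on any array, among them Cyp1a1 and Cyp1a2, the classical AHR-induced enzymes of liver, and Cyp2e1, the ethanol-oxidizing enzyme.

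Detection is given by group as counts, with no test. In family 1 only 1 of 5 probes was kept, the one for Cyp1b1, and the second Cyp1b1 probe was above background on no array. In family 2, the largest, 24 of 60 probes were kept, in family 3 it was 3 of 8, and in family 4 it was 11 of 19. Steroid hormone synthesis had 3 of 8 probes kept, for Cyp17a1, Cyp19a1 (aromatase) and Cyp21a1, with Cyp17a1 alone above background on all 4 arrays. The sterol and bile acid group had 5 of 8 kept, for Cyp7b1, Cyp27a1, Cyp39a1 and Cyp46a1, while Cyp7a1, the rate-limiting enzyme of bile acid synthesis in liver, was not kept. The vitamin A and D group had 4 of 5 kept, for the retinoic acid hydroxylases Cyp26a1 and Cyp26b1 and for Cyp27b1. Cyp27b1 activates vitamin D, while Cyp24a1, which inactivates it, was not kept. Cyp2r1, another enzyme of vitamin D, was counted in family 2, and its probe was above background on no array. Cyp20a1, an enzyme without an assigned substrate, was above background on all 4 arrays.

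**Figure D1:**
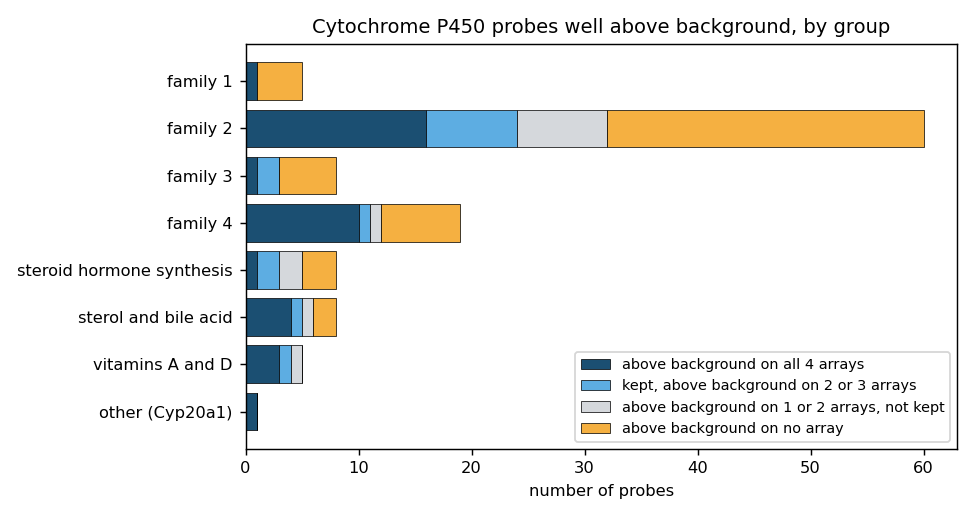
Bars give the number of cytochrome P450 probes in each group (x axis, probes), divided by the number of arrays on which they were well above background. In families 1, 2 and 3 and in steroid hormone synthesis most probes were not kept (4 of 5, 36 of 60, 5 of 8 and 5 of 8), while 4 of 5 vitamin A and D probes were kept.

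In the scanner files no member was called, in either direction, and the share called over all kept probes was 0%. At an unadjusted p below 0.05 from limma, 0 of 52 members passed, against 0.855% of all kept probes, and the lowest unadjusted p of a member was 0.107, for Cyp2d22, with an adjusted p of 1. The lines did not overlap for 12 of 52 members, against 17.9% of all kept probes, and 2 members differed more than 2-fold, against 2.21%. The median difference, shGR-19 minus EV-50, was 0.03 over members and 0.02 over all kept probes. The count of 0 does not show that the genes were equal.

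With the table values 1 member was called higher in shGR-19, against 1.87% of all kept probes, and 3 were called lower, against 2.39%. One of the lower calls, Cyp2f2, was kept through its signal in EV-50 alone. Over the 37 members above background on all 4 arrays 1 was called higher and 2 lower. No share over all probes is given for that filter, so these counts cannot be read against one. The 4 of 52 called in either direction (7.69%) stand beside 4.26% of all kept probes. More than 2-fold, with no test, 5 of 52 members differed, against 6.13% of all kept probes. At any fold 5 of 52 members had a limma adjusted p below 0.01, against 11.6% of all kept probes, and 12 one below 0.05, against 36.5%. An unadjusted p below 0.05 was found for 18 of 52, against 48.4% of all kept probes. The lines did not overlap for 27 of 52 members, which is 51.9%, against 71.9% of all kept probes. The median difference was -0.02 over members and 0.01 over all kept probes. With all 114 member probes tested, 0 were called, against 0.104% of all probes. Among the 62 members not kept, 11 were more than 2-fold apart with no overlap of the lines, against 7.82% of all probes not kept. Among the 49 above background on no array 6 were so, against 5.66% of all such probes. These have no test.

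Cyp2c55, an enzyme of the Cyp2c cluster that oxidizes arachidonic acid, was the member called higher. Its table values were -1.46 and -1.34 in EV-50 and 1.34 and 1.45 in shGR-19, well apart, and the difference was 2.79 ± 0.08 (SE; limma adjusted p = 0.0023), or 6.91-fold. On the scanner arrays it read -3.50 and -2.92 in EV-50 and -3.77 and -0.21 in shGR-19. Only the shGR-19 array labelled replicate 2 was high, and the scanner difference was -0.27 within replicate 1 and 2.71 within replicate 2. None of the other 6 kept Cyp2c probes was called, and their table differences ran from -0.03 to 0.73.

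Cyp1b1 hydroxylates estradiol and polycyclic aromatic hydrocarbons and is a known AHR target. Its table values were 1.01 and 0.95 in EV-50 and -0.95 and -1.46 in shGR-19, and it fell by 2.18 ± 0.20 (SE; limma adjusted p = 0.0081), or 4.54-fold. The scanner arrays read -0.30 and -1.66 in EV-50 and -0.16 and -3.72 in shGR-19. Within replicate 1 the difference was 0.14 and within replicate 2 it was -2.06, and both arrays labelled replicate 2 were lower than both labelled replicate 1, so the scanner values of the lines overlapped.

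Cyp2f2 is known as the naphthalene-oxidizing enzyme of the airway. The table gave 1.68 and 1.53 in EV-50 and -1.995 and -1.53 in shGR-19, and it fell by 3.36 ± 0.19 (SE; limma adjusted p = 0.0043). On the scanner arrays it read -1.49 and -4.43 in EV-50 and -1.73 and -7.85 in shGR-19. The probe was not above background on the shGR-19 array labelled replicate 2, so 1 of 2 shGR-19 arrays measured it. The size of this fall is therefore uncertain, here and wherever it is quoted below. The scanner difference was -0.24 within replicate 1 and -3.42 within replicate 2.

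Cyp26b1 breaks down all-trans retinoic acid. Its table values were 0.70 and 0.64 in EV-50 and -0.68 and -0.64 in shGR-19, and it fell by 1.33 ± 0.05 (SE; limma adjusted p = 0.0030), or 2.51-fold. The scanner arrays read -2.997 and -1.58 in EV-50 and -2.96 and -2.61 in shGR-19. Here the EV-50 array labelled replicate 2 stood above the other 3, and the difference was 0.04 within replicate 1 and -1.04 within replicate 2. The related Cyp26a1, whose probe was above background on 3 arrays, read 0.22 and 0.70 in EV-50 and -0.22 and -1.06 in shGR-19 in the table. Its difference of -1.10 ± 0.37 was past 2-fold and did not pass the test (limma adjusted p = 0.100), and on the scanner arrays it was -0.56 within replicate 1 and 0.20 within replicate 2.

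**Figure D2:**
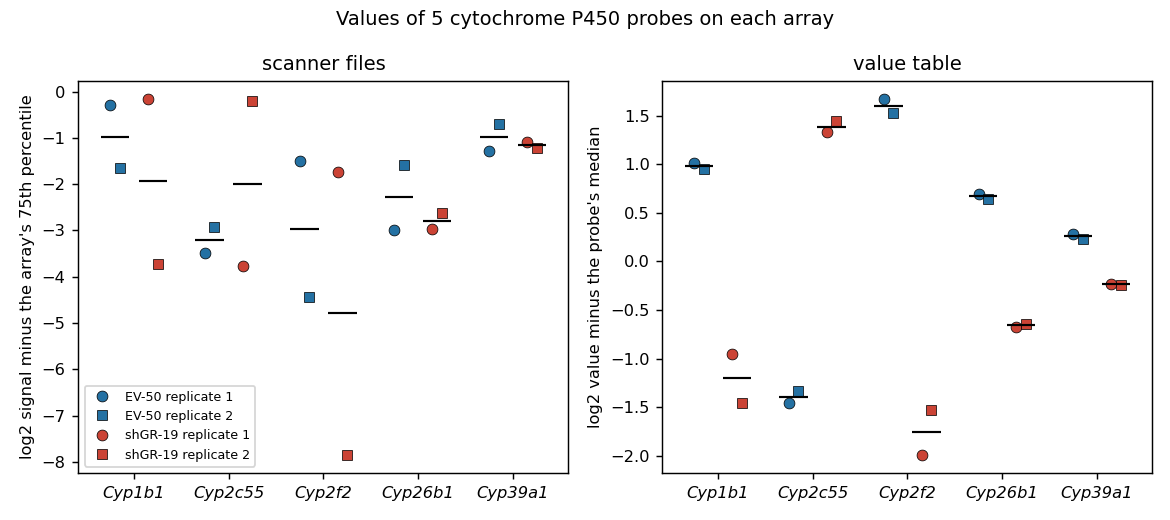
Points are the values of 5 cytochrome P450 probes on each array, in the scanner files (left, log2 signal relative to each array's 75th percentile) and in the value table (right, log2 value minus the median of the probe); black lines are means of 2 arrays. In the scanner files the replicate 1 points of the lines (circles) differ by at most 0.27 for each gene, whereas in the table the lines are apart for all 5.

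One more member had an adjusted p below 0.01 without reaching 2-fold. Cyp39a1, an oxysterol hydroxylase of bile acid synthesis, read 0.28 and 0.24 in EV-50 and -0.24 and -0.24 in shGR-19 in the table, a decrease of 0.50 ± 0.05 (SE; limma adjusted p = 0.0091). Its second probe differed by -0.48 ± 0.06 (limma adjusted p = 0.014). The scanner values of the first were -1.28 and -0.71 in EV-50 and -1.09 and -1.21 in shGR-19, a difference of 0.18 within replicate 1 and of -0.50 within replicate 2.

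A further 6 probes had limma adjusted p-values between 0.01 and 0.05 and smaller differences. Cyp2u1, a fatty acid hydroxylase, was 0.47 higher in shGR-19 on the log2 scale. The other 5 were lower: Cyp4f13 by -0.44, 1 of 2 Cyp4f16 probes by -0.36, Cyp2j13 by -0.35, 1 of 2 Cyp4a10 probes by -0.34 and Cyp7b1, which like Cyp39a1 hydroxylates oxysterols, by -0.32. On the scanner arrays these 6 probes differed by -0.11 to 0.15 within replicate 1 and by -0.41 to 0.41 within replicate 2. For Cyp4a10 the probes disagreed in sign: the other kept probe was 0.41 higher (adjusted p = 0.069).

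The other kept members with more than a 1.5-fold difference in either source did not pass the test, and their columns scattered. Cyp4a14, a fatty acid hydroxylase, read 0.51 and -0.51 in EV-50 and 1.90 and -0.55 in shGR-19 in the table, so that 1 column of shGR-19 made its difference of 0.68 ± 1.00. Cyp2c37 had -0.29 and 0.06 in EV-50 and -0.06 and 1.30 in shGR-19, again with 1 high column, and a difference of 0.73 ± 0.53; its second probe differed by -0.03. Cyp2b13 read 0.14 and 1.17 in EV-50 and -0.14 and -0.20 in shGR-19, with 1 high EV-50 column. Cyp2d22 had -0.12 and -0.14 in EV-50 and 0.97 and 0.12 in shGR-19, and Cyp2a22 had -0.03 and -0.02 in EV-50 and 0.65 and 0.02 in shGR-19. In both, the lines did not overlap in the table and shGR-19 replicate 1 was the high column. On the scanner arrays Cyp2d22 read -5.38 and -5.30 in EV-50 and -4.99 and -4.85 in shGR-19, also without overlap. There Cyp2a22 read -3.12 and -5.46 in EV-50 and -4.90 and -5.15 in shGR-19, a difference of -0.74 ± 0.82 of the opposite sign. The first Cyp2c37 probe read -3.09 and -3.01 in EV-50 and -3.31 and -3.38 in shGR-19 on these arrays. Its scanner difference of -0.29 ± 0.21 was also of the opposite sign, and the lines did not overlap. All of the table differences named in this paragraph had limma adjusted p-values of at least 0.190.

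**Figure D3:**
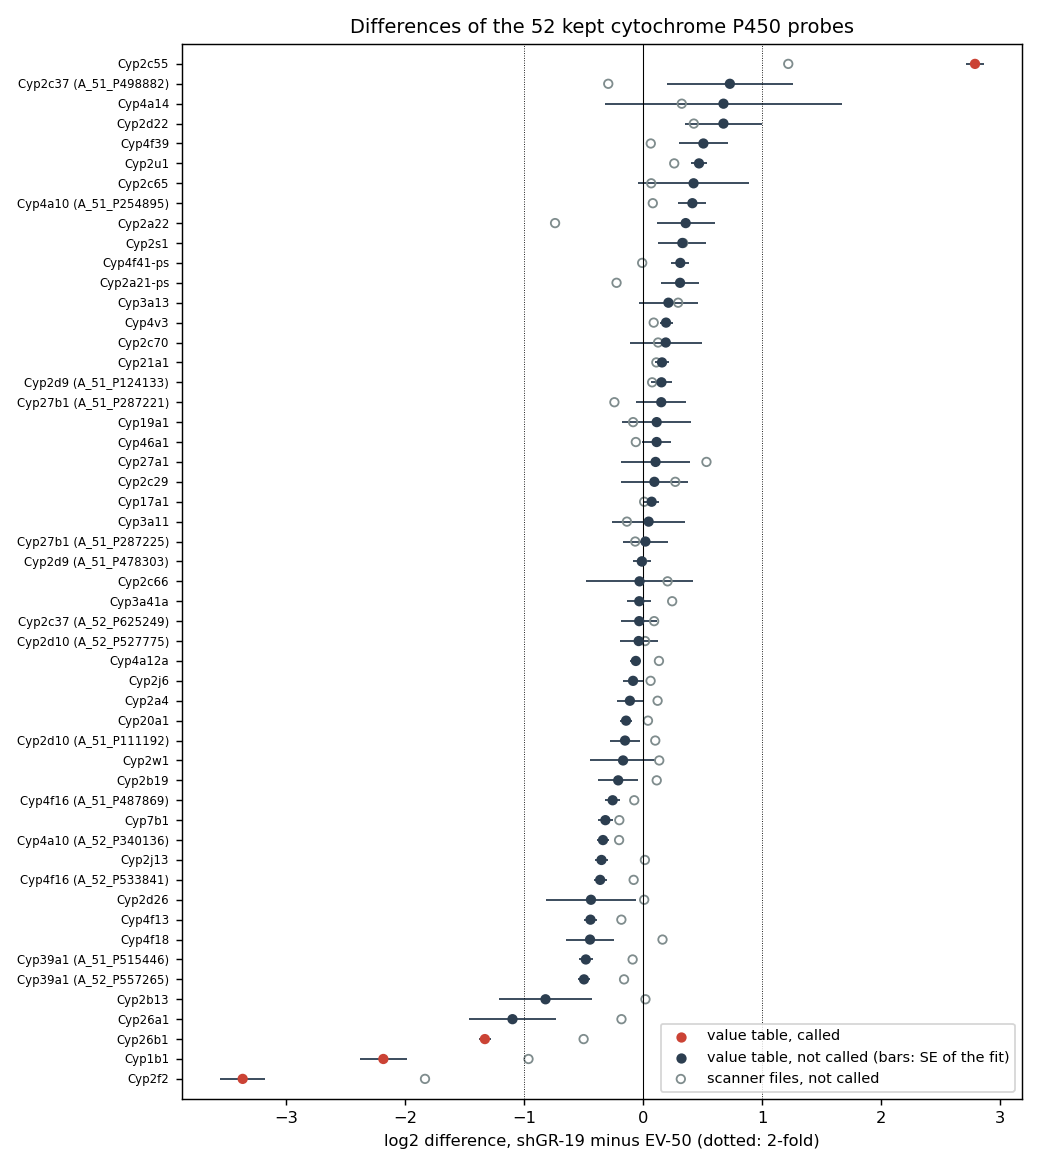
Each row is 1 of the 52 kept cytochrome P450 probes, and the x axis is the log2 difference, shGR-19 minus EV-50, with filled points and SE bars for the value table and open circles for the scanner files. The 4 called probes (red) lie at -3.36, -2.18, -1.33 and 2.79; most others lie inside the dotted lines at 2-fold.

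By group, the table differences of kept members ran from -3.36 to 2.79 in family 2, from -0.03 to 0.21 in family 3 and from -0.45 to 0.68 in family 4. The 3 steroid hormone synthesis probes lay between 0.07 and 0.16, and none passed the test. The sterol and bile acid probes ranged from -0.50 to 0.11, and those of vitamins A and D from -1.33 to 0.15. The 2 probes for Cyp27b1 lay at 0.15 and 0.02. Cyp27a1 was above background on both shGR-19 arrays and neither EV-50 array, too near the detection limit to give a fold.

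Across the 52 kept members, the table difference was set beside the scanner difference within each replicate number, as a description over probes that share arrays. Pearson's r was -0.01 for the arrays labelled replicate 1, where 23 probes had the same sign in both sources, and 0.89 for those labelled replicate 2, where 31 did. Over the 37 probes above background on all 4 arrays r was -0.24 and 0.88, with 14 and 20 of the same sign, so that the signs were near evenly divided while the few called genes lay far from the rest. More than 2-fold differences within replicate 1 were found for 2 members, against 3.57% of all kept probes, and within replicate 2 for 4, against 5.53%. The latter were the 4 called genes.

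**Figure D4:**
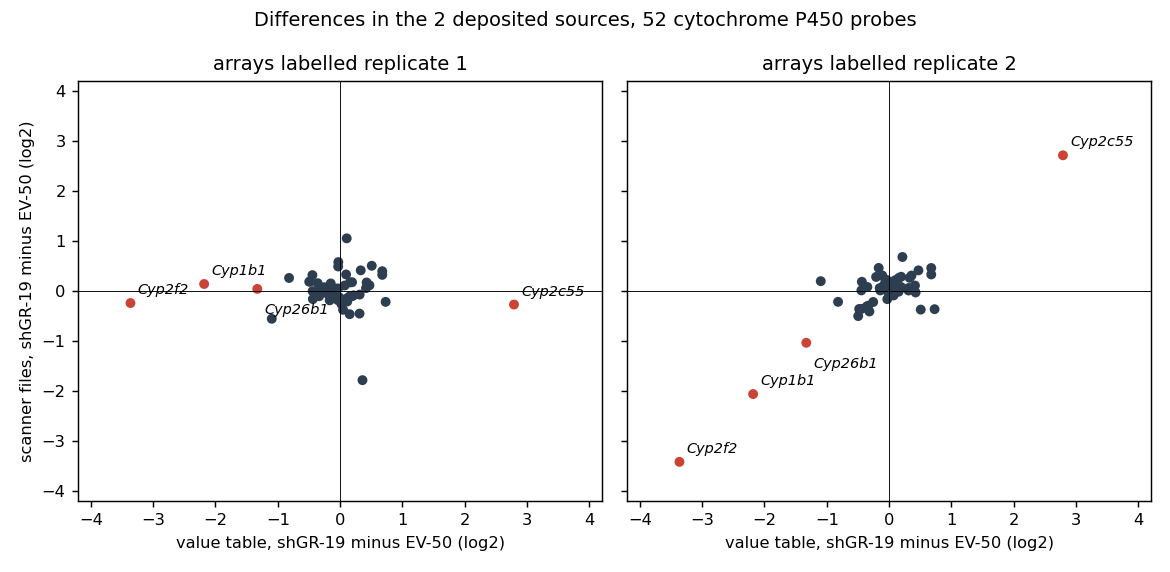
Each point is 1 of 52 cytochrome P450 probes, with its table difference, shGR-19 minus EV-50 on the log2 scale (x axis), and on the scanner arrays of 1 replicate number (y axis); called probes are red. On the replicate 1 arrays (left) the called genes lie near 0, and on the replicate 2 arrays (right) they lie near their table values.

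On the scanner arrays some P450 genes differed between replicate numbers in both lines; these were picked after their values were seen and have no test. In 5 of 52 kept members, replicate 2 was more than 2-fold from replicate 1 in the same direction in both lines, against 4.72% of all kept probes: Cyp1b1, Cyp2f2, Cyp3a13, Cyp4v3 and Cyp7b1. Cyp3a13, a family 3 enzyme, read -2.10 and -2.19 on the replicate 1 arrays of EV-50 and shGR-19 and -6.23 and -5.55 on those labelled replicate 2. Cyp7b1 went the other way, from -0.53 and -0.52 to 1.36 and 0.94. No such split was seen for them in the table, with Cyp3a13 between -0.19 and 0.47.

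The genes around the P450 enzymes were read from lists of their partners, receptors and neighbors in metabolism. Values are from the table unless the scanner arrays are named. None of 19 kept genes for electron donors and heme synthesis was called in either source. Their median table difference was -0.08, and Por, the cytochrome P450 reductase, differed by -0.28 ± 0.06 (limma adjusted p = 0.047). Alas1, the first enzyme of heme synthesis, differed by -0.58 ± 0.10 (adjusted p = 0.024), and Fdx1, the mitochondrial ferredoxin, by 0.50 ± 0.07 (adjusted p = 0.016). Some dimmer probes had a limma adjusted p below 0.01 without reaching 2-fold. They differed by -0.72 ± 0.05 for Alas1 (adjusted p = 0.0050), -0.64 ± 0.05 for Fech (0.0076) and 0.47 ± 0.05 for Fdx1 (0.0089).

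Of 16 kept receptors and partners, 1 was called higher and 2 lower in the table, beside 1.87% and 2.39% of all kept probes. Vdr, the vitamin D receptor, rose by 1.07 ± 0.05 (limma adjusted p = 0.0036), with scanner differences of 0.09 within replicate 1 and 1.09 within replicate 2. Ahrr, the repressor of AHR and itself a known AHR target, fell by 1.89 ± 0.19 (adjusted p = 0.0093). Its scanner differences were 0.07 within replicate 1 and -1.64 within replicate 2. The other gene called lower was Nr3c1, which the shRNA targets, so that call follows from the design and is no finding about the list. Ahr itself was lower by 1.48-fold (a log2 difference of -0.57 ± 0.05, adjusted p = 0.0070), and its partner Arnt had probes that differed in sign. Among the other AHR targets the signs differed: of 5 kept, 1 was called, Gsta1, which fell by 1.03 ± 0.10 (adjusted p = 0.0084), while Aldh3a1 differed by -0.78, and Tiparp and Nqo1 differed by 0.56 and 0.51. On the scanner arrays Gsta1 read 1.41 and -3.47 in EV-50 and 1.72 and -4.91 in shGR-19, so that the arrays of a line were further apart than the lines, and its differences were 0.31 within replicate 1 and -1.45 within replicate 2.

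Of 9 kept retinoid-handling genes, 1 was called lower and none higher, beside 2.39% and 1.87% of all kept probes, with a median table difference of -0.15. Dhrs3, which reduces retinaldehyde to retinol, fell by 3.32 ± 0.05 (limma adjusted p = 0.0012), or 9.98-fold, and its second probe fell by 3.94. Its scanner values were -1.78 and 0.04 in EV-50 and -2.48 and -3.06 in shGR-19, so the EV-50 array labelled replicate 2 was high, as for Cyp26b1, and the differences were -0.70 within replicate 1 and -3.09 within replicate 2. Rdh10, which oxidizes retinol, was just under 2-fold on its brightest probe (-0.995 ± 0.08, limma adjusted p = 0.0066) and past it on another (-1.22). The remaining Rdh10 probe differed by -0.56 ± 0.06 (limma adjusted p = 0.011). On the scanner arrays the brightest Rdh10 probe differed by 0.01 within replicate 1 and by -0.95 within replicate 2. Rara, a retinoic acid receptor, differed by 1.24 ± 0.16 without passing the test (adjusted p = 0.015).

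**Figure D5:**
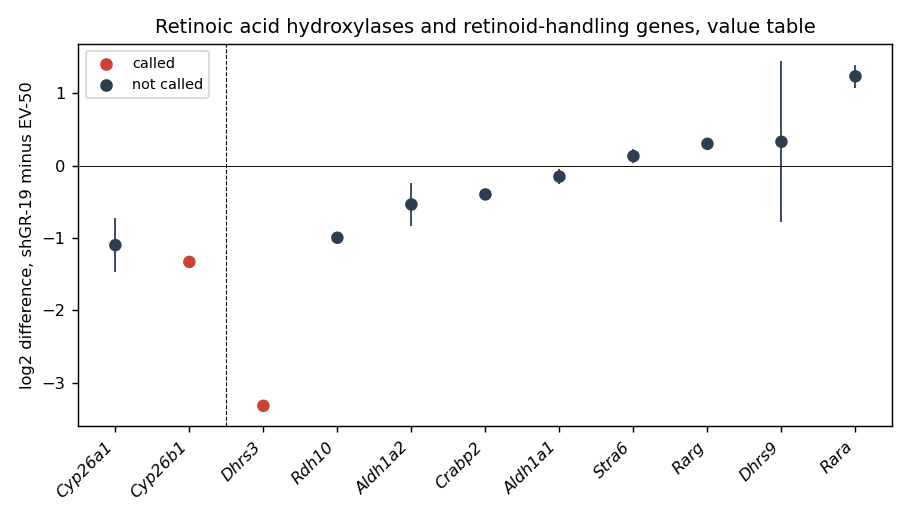
Points are table differences, shGR-19 minus EV-50 on the log2 scale (y axis), with SE bars from the fit, for the retinoic acid hydroxylases Cyp26a1 and Cyp26b1 (left of the dashed line) and the brightest kept probe of 9 retinoid-handling genes. Dhrs3 and Cyp26b1 (red) were called lower, and Rara lies at 1.24 without being called.

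Ephx2, the soluble epoxide hydrolase that acts on the fatty acid epoxides made by Cyp2c and Cyp2j enzymes, fell by 2.28 ± 0.06 (limma adjusted p = 0.0022), or 4.84-fold. Its scanner values were -1.53 and -0.17 in EV-50 and -2.27 and -2.12 in shGR-19, with no overlap of the lines and differences of -0.74 within replicate 1 and -1.95 within replicate 2. Ephx1, the microsomal epoxide hydrolase, differed by -0.26 ± 0.06 (adjusted p = 0.044) in the table.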

How the data were processed

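The authors deposited, per array, Feature Extraction (10.5.1.1) output, of which the background-subtracted intensity of each spot was used, and log2 values for the same samples from GeneSpring, with each probe's median at 0. For the scanner files control and outlier spots were left out, spots of a probe averaged, and the log2 75th percentile of each array subtracted. No spot was saturated, and 23290 to 27358 probes per array were well above background. Both sources were fitted over 24436 kept probes with limma 3.58.1 in R 4.3.3 (lmFit, eBayes, Benjamini-Hochberg); the limits of 2-fold and 0.01 are those of the methods, which name no adjustment, and the p here is the adjusted one. With 2 arrays per line, the array number limits precision. The fits were tested on simulated data. Of the changes put in, the scanner fit called none and the table fit called only a part.

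The members and gene lists were chosen with earlier results of these data known, and lists are described by counts and medians only. Named were called members, members with a table adjusted p below 0.01, kept members past 1.5-fold in either source, Nr3c1 and called list genes; adjacent cases were named after their values were seen. A list gene was read from its brightest kept probe, and 1 gene of the retinoid list is not reported here. The lists held electron donors and heme, receptors, AHR targets, retinoid handling, epoxide hydrolases and cell type markers. Of the other marker lists, immune (3 kept), endothelium (1), adipocyte (1) and testis and adrenal steroid cells (2) had 0 called genes in either source, and mammary epithelium had 1 of 6, Krt14, lower in the table. Alternatives were other background corrections, scalings, filters, priors, thresholds, a plain equal-variance test, gene means, the replicate number as a block and each array left out.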

Additional observations from a re-analysis of the deposited data

How the results depend on the processing

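In the scanner files 0 members were called under each alternative run on those files, which says nothing about stability, since with the reported settings no probe of any gene was called there (smallest adjusted p 0.931); the table gave 1 higher and 3 lower. These table calls were lost, with 0 higher and 0 lower, with all probes kept, with the plain equal-variance test adjusted, and with each array left out (0 to 0 in each direction), with the spread of a lone array taken from the other line. The labels link arrays across the lines only by a replicate number. The correlation of same-numbered deviations was 0.574 in the scanner files and 0.0558 in the table, so same-numbered scanner arrays deviated partly together. With the replicate number as a block 0 were called higher and 0 lower in the table. Filters and limits added after seeing the data gave 2 higher and 2 lower (probes well above background on an array labelled replicate 2, which brought in Cyp11a1 and lost Cyp1b1) and 5 higher and 13 lower (unadjusted p below 0.05 at any fold). At the unadjusted limit these were 18 of 52 members, against 48.4% of all kept probes. For the filter on arrays labelled replicate 2 no share over all probes is given, so its counts cannot be read against one. The causes were not tested. 

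Scanner differences changed sign for named members. With only the arrays labelled replicate 1 they were 0.14 (Cyp1b1), -0.27 (Cyp2c55), 0.18 (Cyp39a1) and 0.0395 (Cyp26b1), and with only replicate 2 they were 0.31 (Cyp2a22), -0.22 (Cyp2b13) and 0.20 (Cyp26a1). With table values Cyp2a22 was 0.36, Cyp2b13 -0.82 and Cyp2c37 0.73, and with normexp Cyp2d22 was -0.0895. With 1 array left out, scanner differences ran from -2.75 to 0.82 for Cyp1b1, -1.91 to 0.43 for Cyp2a22, -0.10 to 0.14 for Cyp2b13, -0.56 to 3.001 for Cyp2c55, -4.89 to 1.23 for Cyp2f2, -0.44 to 0.12 for Cyp39a1, -0.68 to 0.32 for Cyp26a1 and -1.21 to 0.21 for Cyp26b1. In the table Cyp4a14 ran from -0.55 to 1.90, and was -0.0413 with the columns labelled replicate 2. The called members kept their direction in the table under every alternative run there. Dim probes limit the rest: 62 of 114 members were not kept.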

Other observations

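Members that were not kept were left untested, and some had large table differences on probes near background; values are from the table unless the scanner arrays are named. One Cyp2c40 probe read -1.83 and -1.88 in EV-50 and 3.09 and 1.83 in shGR-19, while the second Cyp2c40 probe differed by -1.25 with 1 high EV-50 column. Cyp2ab1 read -1.28 and -1.32 in EV-50 and 1.28 and 1.41 in shGR-19 in the table and -7.08 and -7.48 in EV-50 and -8.19 and -8.40 in shGR-19 on the scanner arrays, the opposite direction without overlap in either. Cyp2c44, an arachidonic acid epoxygenase, read 0.92 and 0.97 in EV-50 and -0.92 and -0.96 in shGR-19. These were above background on none of the 4 scanner arrays, apart from the second Cyp2c40 probe, which was so on 1.

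Cyp11a1, which starts steroid synthesis from cholesterol in mitochondria, had probes that differed by 1.56 and 2.45 in the table, higher in shGR-19, and another by -0.18. The second was above background on the EV-50 array labelled replicate 1 and the shGR-19 array labelled replicate 2. Cyp2j9 and Cyp4b1 were lower in shGR-19 by -2.04 and -2.43, with each probe above background on 1 EV-50 array.

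Probes above background on no array shared an order of columns in the table. In 27 of 49 such members (55.1%) EV-50 replicate 1 was highest, followed by EV-50 replicate 2, shGR-19 replicate 1 and shGR-19 replicate 2, with a median difference of -0.26, and in 52.7% of all such probes the order was the same, with a median of -0.27. In all such probes with this order the differences ran from -3.62 to -0.13. The lesser members above that were lower in shGR-19 differed by -0.32 to -0.50, within that range. Their probes were above background on all 4 arrays. The first Cyp39a1 probe, Cyp4f13 and Cyp7b1 had this order of columns. The second Cyp39a1 probe, Cyp2j13 and the Cyp4f16 and Cyp4a10 probes named with them did not. The part of this order in the differences was not tested.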
